A study of Mus musculus with 25 samples.

Results

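TCDD (2,3,7,8-tetrachlorodibenzo-p-dioxin) is the reference ligand of the aryl hydrocarbon receptor, AhR. Its transcriptional trace in embryoid bodies (EBs), the aggregates in which mouse embryonic stem cells (mESCs) begin to differentiate, was read here on the arrays of EBs exposed to 1 nM and to 10 nM TCDD. They were set against EBs exposed to 1 nM and 10 nM triiodothyronine (T3) and to 1 nM and 10 nM dexamethasone (DEX). The members were chosen by their labels alone and are 6 of the 25 arrays of the series, 2 of TCDD and 4 of the reference. The hydroxylated biphenyl 4OHPCB, given at the same doses, was left out of the reference. T3 and DEX are ligands of nuclear hormone receptors, so the comparison asks what distinguished TCDD from other receptor ligands at equal doses and not what distinguished it from untreated cells.

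All cells were of a C57BL/6 background and of 1 mESC line that expresses GFP constitutively. It had been grown on inactivated fibroblasts, which were removed before aggregation. LIF was withdrawn, each chemical was added in DMSO, at no more than 0.1% of the medium, and RNA was taken after 48 h. The labels give 1 array per chemical and dose, so the doses of a chemical served in place of replicates. The main fit, behind every test not said to differ, measured its spread from how far a chemical's lower and higher dose lay apart. That spread was pooled over all 12 chemicals and holds any effect of dose. Whether an array carries RNA of 1 or of several cultures is not given in the sources used here.

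In a resting cell AhR is held in the cytosol by a chaperone complex that holds HSP90 and p23. A ligand such as TCDD sends the receptor to the nucleus, where it pairs with ARNT and binds the core motif GCGTG before its target genes. These encode enzymes that oxidise hydrocarbons, Cyp1a1 and Cyp1b1 among them, and feedback inhibitors such as Tiparp, a mono-ADP-ribosyltransferase, and Ahrr, a repressor that competes for ARNT. Cyp1a1 and Cyp1b1 are the usual readouts of TCDD exposure, and they differ in the tissues in which they can be induced.

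The promoters of 4 target genes are shown with their matches to the motif that the receptor binds. Binding was not measured here. They run from 250 bases before to 50 bases after the RefSeq start site, in build GRCm38.p6, 5′ to 3′ on the strand of the gene, with GCGTG or its reverse complement CACGC in capitals. They lie at chr17:79715012-79715311 on the minus strand (Cyp1b1), chr3:65528197-65528496 on the plus strand (Tiparp), chr9:57697363-57697662 on the plus strand (Cyp1a1) and chr13:74292282-74292581 on the minus strand (Ahrr).
Cyp1b1: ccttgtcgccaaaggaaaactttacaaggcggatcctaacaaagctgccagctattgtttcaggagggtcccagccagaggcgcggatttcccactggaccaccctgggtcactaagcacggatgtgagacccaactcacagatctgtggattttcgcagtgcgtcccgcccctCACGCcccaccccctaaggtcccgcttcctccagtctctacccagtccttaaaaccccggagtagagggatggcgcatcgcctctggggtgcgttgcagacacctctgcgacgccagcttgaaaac
Tiparp: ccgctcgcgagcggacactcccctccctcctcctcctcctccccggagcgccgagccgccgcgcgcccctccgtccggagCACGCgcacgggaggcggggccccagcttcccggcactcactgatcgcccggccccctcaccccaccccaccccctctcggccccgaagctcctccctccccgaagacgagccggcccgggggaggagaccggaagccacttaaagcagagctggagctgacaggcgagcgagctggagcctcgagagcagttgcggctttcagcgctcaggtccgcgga
Cyp1a1: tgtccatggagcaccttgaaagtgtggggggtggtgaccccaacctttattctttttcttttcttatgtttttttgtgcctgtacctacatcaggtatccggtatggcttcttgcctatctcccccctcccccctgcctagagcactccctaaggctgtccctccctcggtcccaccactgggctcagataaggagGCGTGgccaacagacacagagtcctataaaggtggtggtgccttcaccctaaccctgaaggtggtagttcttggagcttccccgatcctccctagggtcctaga
Ahrr: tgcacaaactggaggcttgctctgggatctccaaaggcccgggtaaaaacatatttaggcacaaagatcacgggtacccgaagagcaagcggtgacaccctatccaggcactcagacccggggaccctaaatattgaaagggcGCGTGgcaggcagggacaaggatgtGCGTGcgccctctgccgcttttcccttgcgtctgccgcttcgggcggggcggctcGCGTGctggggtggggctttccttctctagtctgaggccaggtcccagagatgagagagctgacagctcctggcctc
The motif begins 76 bases before the start site of Cyp1b1 and 170 bases before that of Tiparp, in both on the opposite strand. In Cyp1a1 it begins 54 bases before the start site, and in Ahrr at 107, 82 and 27 bases before it, all on the strand of the gene. Of 18 AhR target genes listed, 13 had an entry in the RefSeq promoter table, and 8 of these held the motif on either strand. The same 5 letters stood in 32.4% of all 32851 promoters of that length, so a match describes the sequence and does not mark a bound site.

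Of the AhR target genes measured, Cyp1b1 alone had both TCDD arrays above the whole reference. Its log2 normalized signal was 6.11 at 1 nM and 5.76 at 10 nM TCDD, 5.36 on both T3 arrays, and 5.03 at 1 nM and 4.74 at 10 nM DEX. Every TCDD array was therefore above every reference array, and DEX lay lowest. The TCDD mean was 0.82 higher on the log2 scale (SE 0.26, 95% confidence interval 0.28 to 1.35, limma adjusted p = 0.546 over all 19140 probes tested), which did not pass the threshold of 0.05. Across all 10656 genes tested, 8.13% had both TCDD arrays above all reference arrays, beside 1 of the 10 target genes measured.

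The Cyp1b1 signal was at the edge of detection. A probe was called detected at a detection p under 0.01, and that of Cyp1b1 was detected on the 1 nM TCDD array and on 0 of the 4 reference arrays. The reference level is thus only an upper bound. The 10 nM TCDD array was not detected either, so no fold is given. Where a bound on a fold is given below, the brighter group was detected on all its arrays. The bound compares that group's mean with a floor on each array of the dimmer group. That floor is the higher of the probe's own signal and the lowest signal of any detected probe. The bound holds for the means of these arrays and makes no allowance for sampling error. Against T3 alone the difference was 0.58 (limma adjusted p = 0.702) and against DEX alone 1.05 (adjusted p = 0.808).

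Tiparp, the other marker of the exposure, was detected on 0 of the 6 arrays. Its log2 signal was 5.76 at 1 nM and 5.69 at 10 nM TCDD, 5.63 and 5.60 at the same doses of T3, and 5.01 and 5.73 at those of DEX. The TCDD arrays lay close to 3 of the reference arrays and overlapped them, and the 1 nM DEX array was lower. The difference of 0.24 (SE 0.32, 95% confidence interval -0.41 to 0.88, limma adjusted p = 0.955) is a difference between signals not above background, and no fold is given for it.

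**Figure D1:**
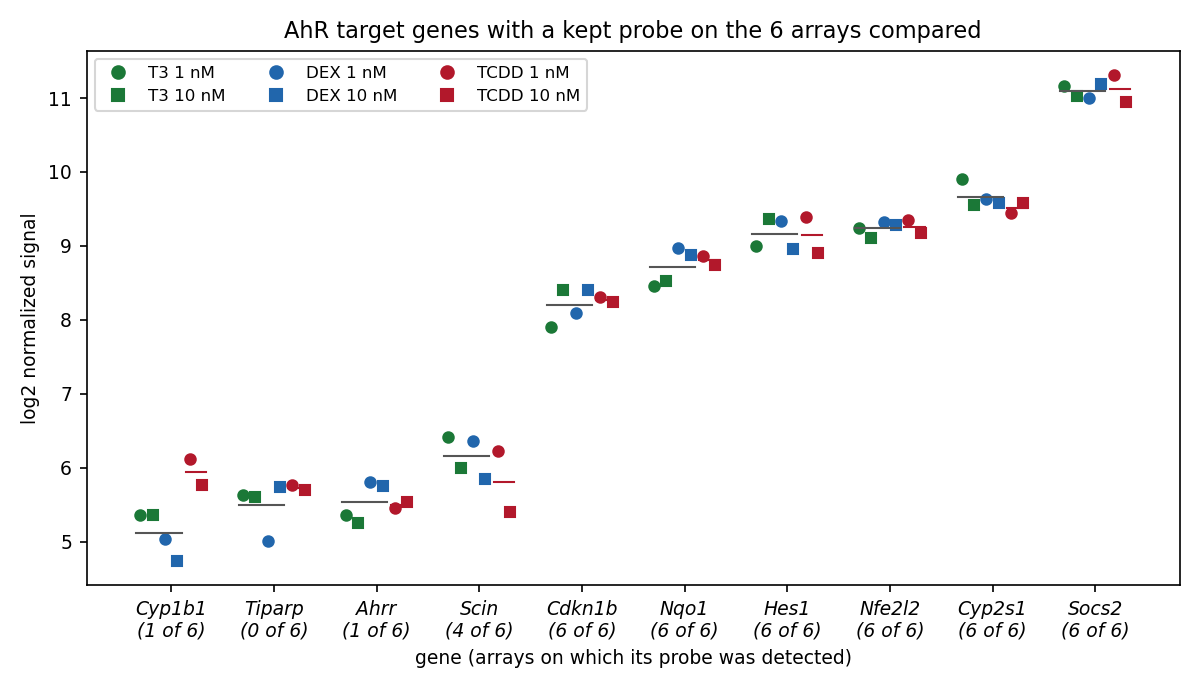
Log2 normalized signal (vertical axis) of the 10 AhR target genes with a kept probe (horizontal axis, with the number of the 6 arrays on which the probe was detected). Circles are 1 nM and squares 10 nM arrays of T3 (green), DEX (blue) and TCDD (red), and lines are the means of the reference and of TCDD. Of these genes, Cyp1b1 shows the red points, at 6.11 and 5.76, above all others.

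The other AhR targets fell into those that EBs expressed and those whose probes gave no signal. Of the 18 genes listed, 17 had a probe annotated to that symbol alone, 10 had a probe detected on at least 2 of the 25 arrays, and 6 were detected on all 6 arrays compared. Cyp1a1, the classic target in liver, Cyp1a2, Ugt1a6a, Gsta1, Ugdh and Xdh were detected on 0 of the 25 arrays, and Aldh3a1, an aldehyde dehydrogenase, on 1. A change in them from one level below background to another could not have been seen. Slc7a5 had no probe of its own symbol and was not analysed here.

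The 6 expressed targets lay close to the T3 and DEX arrays. Nqo1, a quinone reductase that NRF2 also controls, had log2 signals of 8.87 and 8.74 at 1 nM and 10 nM TCDD, 8.46 and 8.52 with T3, and 8.98 and 8.88 with DEX. TCDD thus lay between the reference chemicals, at a mean difference of 0.10 (95% confidence interval -0.21 to 0.40). Socs2, an inhibitor of cytokine signalling, stood at 11.31 at 1 nM TCDD, above the highest reference array at 11.19, and at 10.95 at 10 nM, below all of them, a mean difference of 0.03 (-0.18 to 0.25). The interval of Nfe2l2, which encodes NRF2, was -0.26 to 0.31 around 0.02, that of the Notch target Hes1 -0.31 to 0.28 around -0.02, that of the cytochrome Cyp2s1 -0.48 to 0.17 around -0.16, and that of the cell cycle inhibitor Cdkn1b -0.36 to 0.51 around 0.07. For each of these genes a log2 change of 1 in either direction lay outside the interval. This held against T3 and DEX only. Against the mean of the other 11 chemicals Cyp2s1 differed by 0.77 (limma adjusted p = 0.00026), Cdkn1b by 1.01 (adjusted p = 0.000321) and Socs2 by -0.52 (adjusted p = 0.000225), and against the single DMSO array Nfe2l2 differed by 0.71 (adjusted p = 0.043), all on the same TCDD arrays. In those comparisons 3117 and 578 of the 19140 probes passed. The arrays of DMSO, E2, DHT and BPA belong to another set of the authors' normalization than those of TCDD, T3 and DEX. Where TCDD is set against them, here and below, set and chemical cannot be told apart.

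Scin and Ahrr were dimmer. Scin, an actin-severing protein, was detected on 4 of the 6 arrays, with log2 signals of 6.23 and 5.40 at 1 nM and 10 nM TCDD and 5.85 to 6.42 on the reference arrays, a difference of -0.35 (SE 0.28). Ahrr was detected on 1 of the 6 arrays, that of 1 nM DEX, and differed by -0.05 (SE 0.23). Over the 10 genes measured the median difference was 0.03, beside 0.00 over all genes, and 0 of them passed the adjusted threshold. At an unadjusted p under 0.05, 1 of the 10 was higher, Cyp1b1, against 2.33% of all genes.

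The transcript of the receptor itself was not detected. The single Ahr probe was detected on 0 of the 25 arrays, as were those of Arnt2 and of the coactivators Ncoa1 and Ncoa2. Its partner Arnt was well expressed, with log2 signals of 9.80 and 9.91 with TCDD and 9.71 to 9.94 on the reference arrays, so the groups overlapped, at a difference of 0.03 (SE 0.12). The chaperone Hsp90aa1 differed by 0.05 (SE 0.09) at a log2 level above 12 on each of the 6 arrays. Ptges3, which encodes p23, differed by -0.04 (SE 0.10). Of the 10 measured genes of the receptor complex and its cofactors, 0 passed, as did 0 of all genes. An unadjusted p under 0.05 was found for 0 of them, beside 5.69% of all genes. Outside the reference range lay 0, beside 16.2% of all genes. The differences ran from -0.16 (Rb1, the retinoblastoma protein) to 0.24 (Crebbp, a histone acetyltransferase). With other references 4 of the 10 passed. Of all 19140 probes, 3117 passed against the mean of the other 11 chemicals and 578 against the single DMSO array. These calls are therefore not read as particular to the receptor complex. Arnt differed by -0.78 from DMSO (limma adjusted p = 0.0105), and Crebbp by 1.24 from DMSO (adjusted p = 0.00841) and by 0.88 from the mean of the other 11 chemicals (adjusted p = 0.000265). Ptges3 and Hsp90aa1 differed from those 11 by -0.37 (adjusted p = 0.00465) and -0.29 (adjusted p = 0.00705). An undetected probe says that its signal was not above background on these arrays, and the amount of receptor in the cells was not measured.

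Over the whole array, 0 of 19140 probes differed between TCDD and the mean of T3 and DEX at a limma adjusted p under 0.05, or 0 of 10656 genes when each was read from its brightest probe. The lowest adjusted p was 0.315. At an unadjusted p under 0.05 there were 1251 probes, 6.54% of those tested, of which 504 (2.63%) were higher and 747 (3.9%) lower with TCDD. Counted by gene, 248 (2.33%) were higher and 358 (3.36%) lower. A plain t-test on the same values gave 1260 probes at an unadjusted p under 0.05 and 0 after the Benjamini-Hochberg adjustment. TCDD against T3 alone, TCDD against DEX alone and T3 against DEX each gave 0 adjusted calls as well, with 1392 (7.27%), 898 (4.69%) and 806 (4.21%) probes at an unadjusted p under 0.05.

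How large a difference this comparison could have missed is given by its intervals. The median absolute difference over genes was 0.11, and 5% of the genes differed by more than 0.44. The 95% confidence interval lay within -1 to 1 for 95.8% of genes and within -0.5 to 0.5 for 56.7%. Of the 5904 genes with a mean log2 signal over 8, the shares were 99.9% and 90.3%. Dim genes were measured less well, with a median SE of 0.27 below a log2 signal of 6 against 0.12 above 8. Cyp1b1, Tiparp and Ahrr all belong to that dim class.

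**Figure D2:**
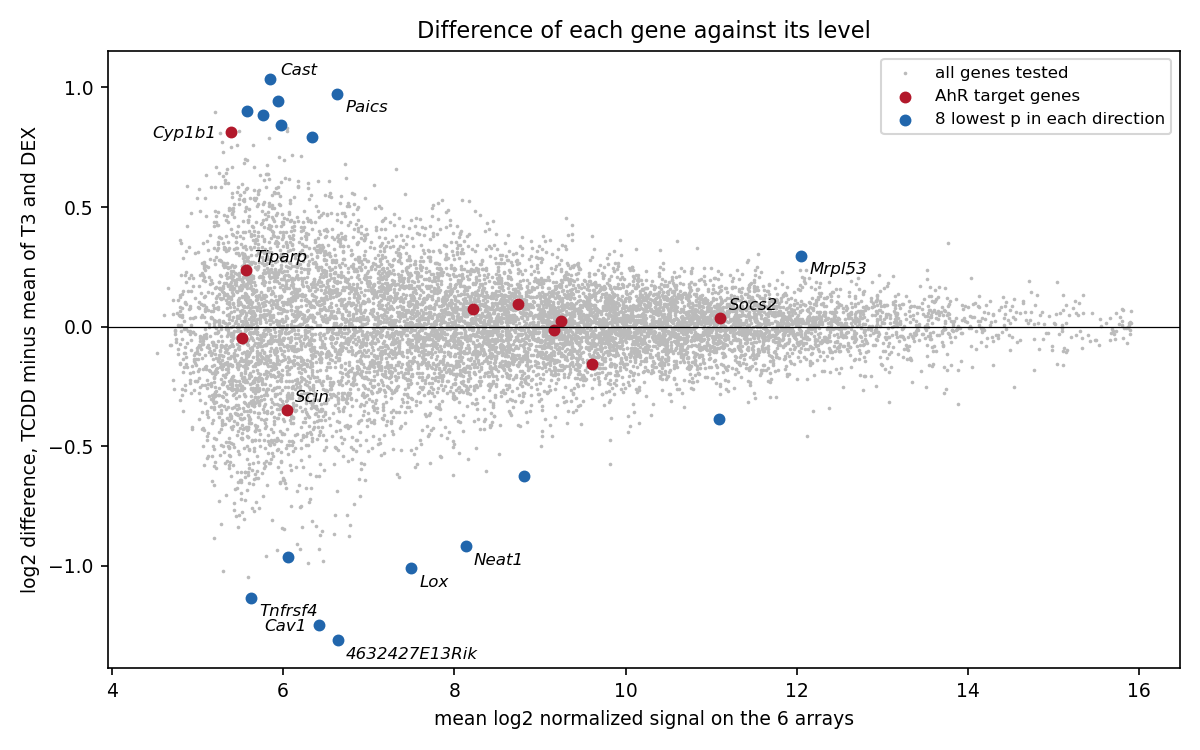
Log2 difference of each of the 10656 genes between TCDD and the mean of T3 and DEX (vertical axis) against its mean log2 normalized signal on the 6 arrays (horizontal axis). Red points are AhR target genes and blue points the 8 genes of lowest p in each direction. The scatter narrows with signal, and the red points other than Cyp1b1, at 0.82, lie inside the grey cloud.

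The distance between arrays was nearly the same within and between chemicals. The root mean square log2 difference between the doses of 1 chemical was 0.28 to 0.32, that between T3 and DEX arrays 0.29 to 0.31, and that between TCDD and reference arrays 0.31 to 0.33. The mean was 0.302 for doses of a chemical and 0.317 for TCDD against the reference.

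The 1 nM and 10 nM comparisons share no array, so each can be read against the other. Across the 10656 genes the differences at 1 nM and at 10 nM correlated at r = 0.0892, with the same sign in 54.1%; genes are not independent replicates. The 100 genes with the highest differences at 1 nM, at a median of 0.87, had a median difference of 0.02 at 10 nM, and 52 of them were above 0. The 100 with the lowest at 1 nM, at a median of -0.93, had a median of -0.15 at 10 nM, and 64 of them were below 0. Read the other way, 49 of the 100 highest and 63 of the 100 lowest at 10 nM had the same sign at 1 nM.

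**Figure D3:**
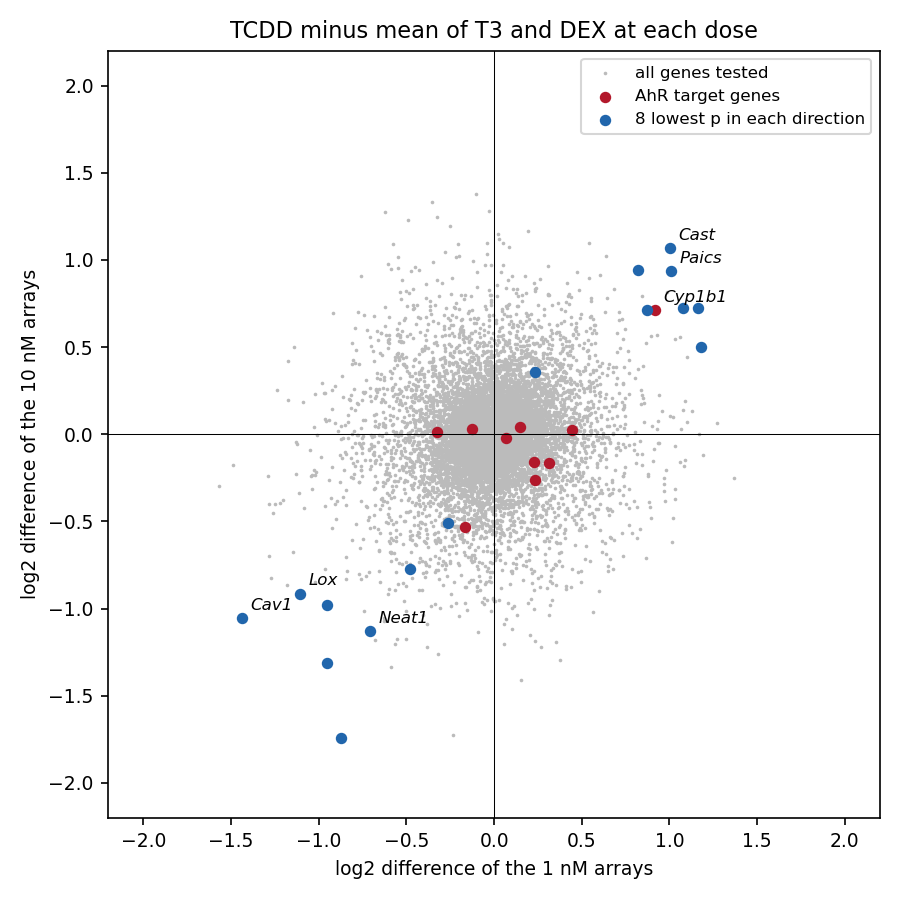
Log2 difference between TCDD and the mean of T3 and DEX at 10 nM (vertical axis) against that at 1 nM (horizontal axis) for 10656 genes. Red points are AhR target genes and blue points the 8 genes of lowest p in each direction, which were chosen to be displaced at both doses. The grey cloud is nearly round (r = 0.0892).

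The genes of lowest p whose TCDD arrays did not overlap the reference were taken as the nearest candidates, 8 in each direction, although none passed the adjusted threshold. Of all genes, 16.2% did not overlap, 8.13% higher and 8.12% lower, so the lack of overlap was shared by many genes and selected these. Their differences are therefore given as descriptions.

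Among the 8 higher with TCDD, Paics, an enzyme of purine synthesis, was detected on all 6 arrays. Its log2 signal was 7.51 at 1 nM and 7.05 at 10 nM TCDD, 6.55 and 6.13 with T3, and 6.45 and 6.09 with DEX. Both TCDD arrays stood clear of the reference, at a difference of 0.97 (SE 0.24, limma adjusted p = 0.411). Mrpl53, a protein of the mitochondrial ribosome and the brightest of the 8, had 12.14 and 12.36 with TCDD and 11.86 to 12.00 on the reference arrays, a difference of 0.30 (SE 0.09). Cast, which encodes the calpain inhibitor calpastatin, differed by 1.04 (SE 0.28), the largest positive difference of all genes, but was detected on 1 of the 4 reference arrays.

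Gpr1, a receptor for chemerin, had log2 signals of 7.02 and 6.72 at 1 nM and 10 nM TCDD, 6.38 and 5.82 with T3, and 5.91 and 6.20 with DEX. The difference was 0.79 (SE 0.23, limma adjusted p = 0.507). On the 19 arrays that took no part in the comparison it lay between 5.35 and 6.27, below both TCDD arrays. AI987944 had 6.72 and 6.42 with TCDD against 5.28 to 6.11 on the reference arrays, and 4.81 to 5.75 on those 19 arrays. It was detected on 3 of 25 arrays, both of TCDD and 1 of the reference. The kinase Prkd1 (0.88), Creg1, a secreted glycoprotein (0.84), and the adhesion receptor Adgrb2 (0.90) were each detected on both TCDD arrays and on no more than 1 of the 4 reference arrays. A second probe of Prkd1 differed in the opposite direction. Adgrb2 was undetected on all of the reference, and its mean on these TCDD arrays was at least 1.25-fold higher, without allowance for sampling error.

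Of the 8 lower with TCDD, Cav1 encodes caveolin-1, the coat protein of caveolae. Its log2 signal was 5.33 at 1 nM and 5.85 at 10 nM TCDD, where it was not detected, 6.71 and 6.70 with T3, and 6.82 and 7.10 with DEX, where it was. The difference was -1.25 (SE 0.25, limma adjusted p = 0.315), and as the TCDD level is a bound, TCDD was at least 1.83-fold lower. Lox encodes lysyl oxidase, which cross-links collagen and elastin, and was detected on all 6 arrays. It stood at 6.55 and 7.09 with TCDD, 7.60 and 7.88 with T3, and 7.72 and 8.13 with DEX, with both TCDD arrays below the reference, at a difference of -1.01 (SE 0.22, adjusted p = 0.315).

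Neat1, the long noncoding RNA of paraspeckles, had log2 signals of 7.78 and 7.26 at 1 nM and 10 nM TCDD, 8.37 and 8.62 with T3, and 8.61 and 8.15 with DEX, a difference of -0.92 (SE 0.21, limma adjusted p = 0.351). The transcript 4632427E13Rik differed most of all genes, by -1.31 (SE 0.27), with 6.22 and 5.31 against 7.01 to 7.13. Tnfrsf4, a costimulatory receptor of T cells, was undetected with TCDD at 4.94 and 4.80 and stood at 5.74 to 6.23 on the reference arrays. It was detected on 3 of the 4 reference arrays, so no fold is given. Clasrp (-0.63), Tmem185a (-0.96) and Cstf2 (-0.38), the last a factor of mRNA 3′ end cleavage, completed the group. In a fit of the 6 arrays alone, whose spread came from 3 chemicals, 7 probes passed. Cav1, Lox, Neat1 and 4632427E13Rik were lower, as were 2900060B14Rik (-0.57) and a probe with no symbol (-0.47), each at a limma adjusted p = 0.0382. A probe of Npm3-ps1, a transcribed pseudogene, was higher and had the lowest adjusted p, 0.00918. Its log2 signal was 11.56 and 12.17 with TCDD, 11.35 and 10.76 with T3, and 10.93 and 11.30 with DEX, a difference of 0.78 (adjusted p = 0.41 over all arrays). It was not among the 8 higher because a brighter probe, which differed by 0.35 (SE 0.14) with both TCDD arrays above the reference, stood for the gene. Cross-hybridisation with its parent gene was not tested, and these 3 probes were named after their values were seen.

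Several of these genes varied over the series without regard to TCDD. Over the 13 groups of the series, counting DMSO, TCDD ranked sixth in Cav1, the seventh in Lox and the sixth in Paics. Cav1 was at 6.80 and 7.12 with BPA and at 6.30 with DMSO, but between 4.56 and 4.99 on all arrays of thalidomide, permethrin, cyclopamine, DEHP and methoprene. Lox likewise reached 8.44 with BPA and lay between 4.57 and 5.27 on the arrays of those chemicals. Paics ran the other way, at 6.98 to 7.86 on the arrays of those chemicals. Of the 16 genes, AI987944, Gpr1, Tnfrsf4 and Cstf2 had both TCDD arrays outside all 23 other arrays of the series, as had 0.967% of all genes, 0.526% above and 0.441% below. Those shares are no baseline for the 16, which were chosen for lying outside 4 of those arrays. Of the 1731 genes without overlap with T3 and DEX, 103 (5.95%) lay outside all 23, and AI987944 was kept only because its TCDD arrays were detected.

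**Figure D4:**
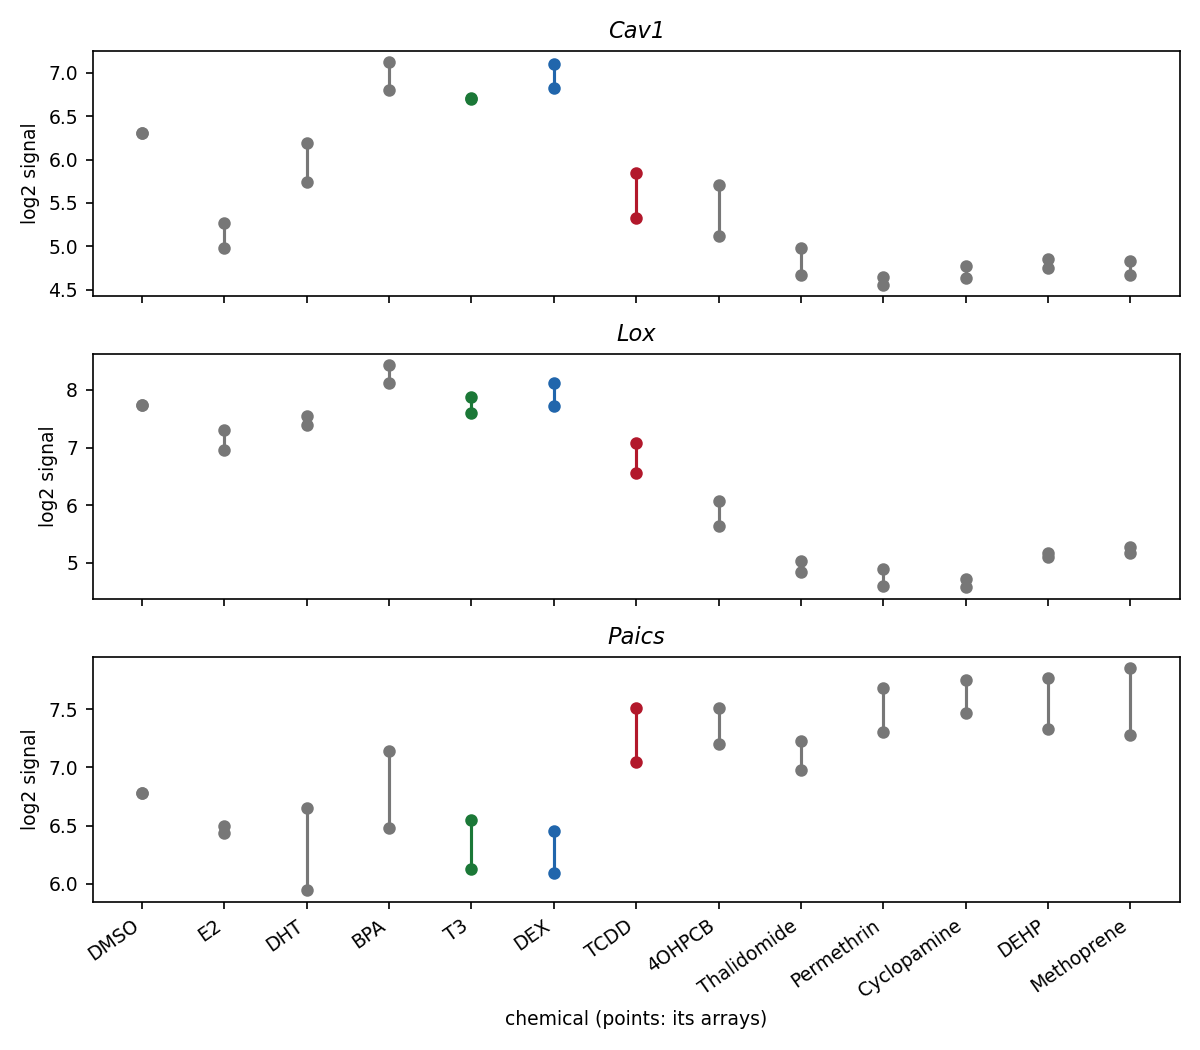
Log2 normalized signal (vertical axes) of Cav1, Lox and Paics on the arrays of each chemical and DMSO (horizontal axis), with a line joining the arrays of a chemical. TCDD (red) lies below T3 (green) and DEX (blue) in Cav1 and Lox and above them in Paics, and in Cav1 and Lox the arrays from thalidomide to methoprene lie lower than TCDD. Cav1 was not detected on the TCDD arrays or on those to their right.

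Lox was also listed among markers of the fibroblasts on which the mESCs had been grown. Of 13 such markers, 7 were measured and 0 passed. Lox and Dcn, a matrix proteoglycan, lay below all reference arrays, Dcn at 6.76 and 6.44 against 6.78 to 7.31, beside 8.12% of all genes. The median difference over the 7 was -0.23, beside 0.00 over all genes, and their summed signal was 998 and 987 on the TCDD arrays and 1076 to 1288 on the reference arrays. Both values include Lox, which was picked for its low signal on these same TCDD arrays. They are therefore no separate evidence on the list, and the sum without Lox was not computed. The largest positive difference was that of Col1a2, 0.55 (SE 0.27), at 6.25 and 5.48 with TCDD against 5.09 to 5.63. The defining collagens were near background: Col1a1 was detected on 0 of the 6 arrays and Col1a2 on 1, Col3a1 was detected on 1 of 25 arrays, and Postn, Lum and Fap on 0. Thy1 differed by 0.00 (SE 0.15). The part of residual fibroblasts in the values of Lox was not tested, and in these whole-EB samples fewer cells of a type and less RNA per cell cannot be told apart.

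The TCDD arrays were also the dimmest before normalization. Their median raw signal was 8.13 and 7.84, against 9.44 to 12.3 on the reference arrays, while 15254 and 15629 of 45281 probes were detected, against 15414 to 16284. The part of this in the differences above was not tested. With arrays scaled to a common median in place of quantiles, the median difference over all probes was -0.19, and 6 probes passed, all lower with TCDD. They were Cav1, Lox, Neat1, 4632427E13Rik, Clasrp and Rgs9bp, all in the direction of that shift. None of them passed in the main fit, which used quantile normalization. With the same normalization, Cav1, Lox, Neat1 and 4632427E13Rik passed in the fit of the 6 arrays alone. The part of the shift in the calls with median scaling was not tested.

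Markers of the cells showed pluripotency and endoderm genes expressed in every group. Pou5f1, the core pluripotency factor, had log2 signals of 12.94 and 12.98 with TCDD, between the lowest reference array at 12.79 and the highest. Of 18 measured pluripotency genes all were detected on the 6 arrays, and 0 passed. Nanog stood at 11.02 and 11.08 with TCDD, below 11.10 to 11.50 on the reference arrays, at a difference of -0.23 (SE 0.13), and Dppa2 differed by -0.31 (SE 0.15). Dppa3, a factor of germ cells and the early embryo, differed by 0.31 (SE 0.16). Of the 18 genes 3 lay below and 1 above the reference, beside 8.12% and 8.13% of all genes, with a median difference of 0.01. The primitive endoderm factor Gata6 lay at 10.86 and 11.02 against 10.78 to 10.99, while Gata4 was detected on 0 of the 6 arrays. Of 19 measured endoderm genes 1 lay above the reference and 0 below, beside 8.13% and 8.12% of all genes. It was Lama1, a laminin chain, at 13.53 and 13.82 against 13.33 to 13.52 (0.24, SE 0.13). The neural factors Sox1 and Pax6 and the mesoderm factors Mixl1 and Mesp1 were detected on 0 of 25 arrays. Among markers of the primed epiblast, Otx2 differed by -0.25 (SE 0.12), Lef1 by -0.37 (SE 0.23) and Zic2 by 0.39 (SE 0.25). Of 8 measured trophoblast genes 2 lay below the reference and 0 above, beside 8.12% and 8.13% of all genes, with a median difference of -0.10. The largest difference was that of the trophoblast factor Ascl2, undetected with TCDD, at 6.00 and 5.62 against 6.16 to 6.68 (-0.67, SE 0.25, limma adjusted p = 0.667). Its mean on these TCDD arrays was at least 1.44-fold lower, without allowance for sampling error.

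Pathways that border on AhR were read in the same fit, and 0 of their genes passed. HIF, the hypoxia factor, shares ARNT with AhR. Of 15 hypoxia-inducible genes measured, 5 lay below all reference arrays and 1 above, beside 8.12% and 8.13% of all genes, with a median difference of -0.14. Aldoa, a glycolytic enzyme, had log2 signals of 14.36 and 14.37 with TCDD against 14.45 to 14.69 (-0.25, SE 0.11), and Vegfa, the vascular growth factor, 10.35 and 10.34 against 10.43 to 10.57 (-0.15, SE 0.11). Pgk1, Egln3 and Ankrd37 were the other 3, at -0.14, -0.18 and -0.17, and a second, dimmer probe of Egln3 differed in the opposite direction. Adm, which encodes adrenomedullin, differed by -0.41 (SE 0.20) and overlapped. Egln1, an oxygen sensor, was the 1 above, at 7.72 and 7.68 against 7.12 to 7.61, although a second of its probes differed in the opposite direction. Among the bHLH-PAS factors related to AhR, Hif1a differed by -0.06 and Arntl, a clock factor, by -0.30 (SE 0.16).

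Of 16 NRF2 targets measured, 1 lay above and 1 below the reference, beside 8.13% and 8.12% of all genes. The cystine transporter Slc7a11 was above, at 6.25 and 6.28 against 5.62 to 6.23, and the autophagy adaptor Sqstm1 below, at a difference of -0.16 (SE 0.10). Gstm1, a glutathione transferase, overlapped the reference, at 9.05 and 9.14 with TCDD and 9.07 to 9.62 on the reference arrays (-0.31, SE 0.12). Hmox1, the heme oxygenase, differed by -0.13 (SE 0.15). In the oxidative stress set of the study, 21 genes were measured, with a median difference of 0.00. Of these, 2 lay above and 1 below the reference, beside 8.13% and 8.12% of all genes. Slc41a3 differed most and was detected on 3 of the 6 arrays. It stood at 6.65 and 6.29 against 5.59 to 5.96, with another of its probes in the opposite direction. Other enzymes and transporters of xenobiotics had a median difference of 0.01 over 13 genes, with Nat2 at -0.47 (SE 0.27) and Cyp20a1 at -0.40 (SE 0.22). In the PARP family of Tiparp, Parp1 differed by -0.04 (SE 0.10), Parp4 by -0.37 and Parp10 by -0.35 (SE 0.24 for each).

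A comparison with T3 and DEX would also show targets of the reference ligands as lower with TCDD. The receptors Nr3c1, Thra and Thrb were detected on 0 of 25 arrays. Of 14 glucocorticoid genes measured, 4 lay below all reference arrays and 0 above, beside 8.12% and 8.13% of all genes. Tsc22d3, the glucocorticoid-induced leucine zipper, had log2 signals of 8.45 and 8.07 with TCDD, 8.67 and 8.50 with T3, and 8.83 and 8.67 with DEX. It was thus lowest with TCDD, at -0.33 from T3 and -0.49 from DEX, and the difference from the mean of both was -0.41 (SE 0.16, limma adjusted p = 0.68). Fkbp5 (-0.16), Dusp1 (-0.18) and Nfkbia (-0.24) were the other 3, and each lay below the T3 arrays as well as the DEX arrays. A second, dimmer probe of Nfkbia differed in the opposite direction. Klf9, a target of both hormones, differed by -0.04 (SE 0.08). Among thyroid hormone genes Rxra, the shared partner of nuclear receptors, was above, at 7.05 and 7.16 against 6.22 to 6.96 (0.50, SE 0.24).

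In the remaining lists, Srebf2, the regulator of sterol synthesis, had log2 signals of 10.15 and 10.19 with TCDD against 9.69 to 9.90 (0.36, SE 0.11, limma adjusted p = 0.543), with another of its probes in the opposite direction. Its target Insig1 lay at 10.80 and 11.03 against 10.61 to 10.74. Of 12 sterol genes measured, 2 were above the reference and 0 below, beside 8.13% and 8.12% of all genes. By mean, 9 of the 12 were higher and 3 lower. Idi1 had the largest difference of them, 0.38 (SE 0.24), and overlapped the reference. Of 19 cell cycle genes, Mcm3, a subunit of the replicative helicase, was 0.25 higher (SE 0.10), and the list had a median of -0.03. Jun was 0.47 higher (SE 0.21) and Myc 0.51 lower (SE 0.25, undetected with TCDD). Among 10 retinoic acid genes Aldh1a2 differed by -0.35 (SE 0.28) and Crabp2 by 0.32 (SE 0.22). None of the 10 lay outside the reference, beside 16.2% of all genes.

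Cyp1b1 was not highest with TCDD over the whole series. Its mean log2 signal was 6.18 with BPA, 5.94 with TCDD, 5.84 with cyclopamine and 5.76 with 4OHPCB. It was 5.34 to 5.42 with methoprene, thalidomide, DHT, permethrin, T3 and DMSO, then 5.14 with E2, 4.98 with DEHP and 4.88 with DEX. The SD between the doses of a chemical, pooled over the series, was 0.27, and of the steps between neighbours in that order the one from 4OHPCB to methoprene was larger. The probe was detected on 5 of 25 arrays, both of BPA and 1 each of TCDD, cyclopamine and 4OHPCB. Tiparp was highest on DMSO, at 6.26, with 4OHPCB at 5.89 and TCDD at 5.73, and its SD between doses was 0.43. No step between neighbours in its order exceeded that SD.

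**Figure D5:**
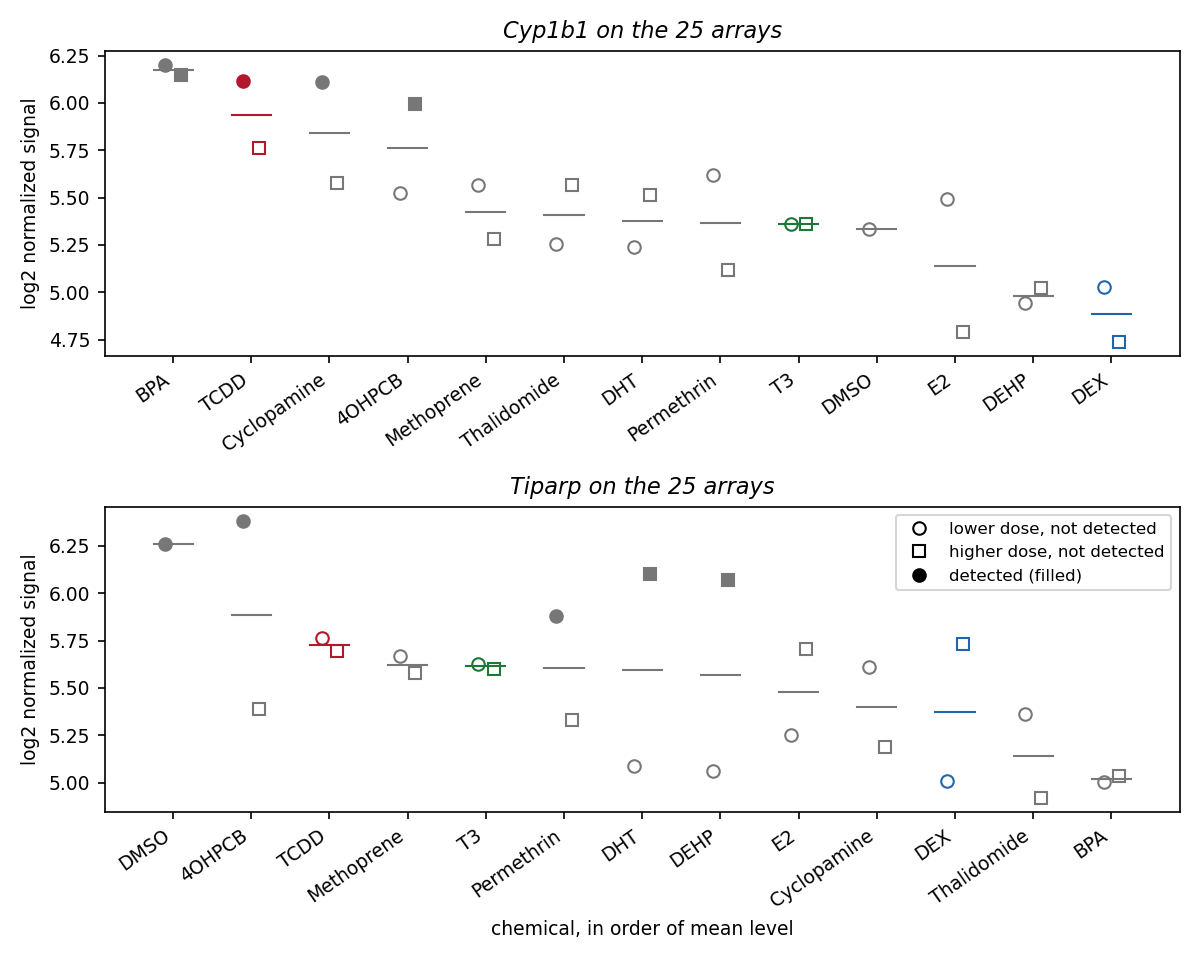
Log2 normalized signal (vertical axes) of Cyp1b1 and Tiparp on the 25 arrays, by chemical in order of mean level (horizontal axes). Circles are lower and squares higher doses, filled where the probe was detected, and lines are means. TCDD (red) comes second for Cyp1b1, at 5.94, and the third for Tiparp, at 5.73, in an order in which most points are open.

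The genes whose log2 signal was most like that of Cyp1b1 over the 25 arrays were Fbxl7 (Pearson r = 0.741), Ercc6l (0.726), Steap1 (0.703), Myh10 (0.700) and Mras (0.675), the highest of 10655 genes compared. The points share the normalization and each chemical's pair of arrays. Myh10, a nonmuscle myosin, was the brightest of them, at 9.23 and 9.19 with TCDD, and differed from the reference by 0.34 (SE 0.13, limma adjusted p = 0.667). Steap1 differed by -0.02 (SE 0.23).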

How the data were processed

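Total RNA of 25 EB samples was hybridised to Illumina Mouse WG-6 arrays. The authors deposited a non-normalized table of signal intensity per probe, already background-subtracted (negative values in up to 35.0% of probes of an array), with detection p-values, and a table of intensity values normalized in GeneSpring in 2 sets. The first set was the 7 arrays of DMSO, E2, DHT and BPA, with medians of 11.5 to 11.6 in that table. The second was the other 18, TCDD among them, with medians of 13.5 to 13.6. The methods name another version of the array than the labels, and speak of triplicates. From the non-normalized intensity, background was corrected with nec of limma 3.58.1 in R 4.3.3 (from the detection p-values, offset 16), the 25 arrays were quantile-normalized together and log2 taken. Probes detected on at least 2 arrays were kept, and the brightest kept probe with 1 symbol stood for a gene. The fit used lmFit and eBayes with trend over all arrays, each chemical a group of its 2 doses (12 residual degrees of freedom), with Benjamini-Hochberg adjustment over 19140 probes. P-values thus measure the spread between dose arrays, which may be technical. The fit was tested on simulated data. Genes named were the AhR targets, the 8 of lowest p in each direction without overlap, and up to 2 of each of the other lists with the largest difference. Others were named for defining the cells or a list, after their values were seen. The members and lists were chosen with earlier results of these data known. Symbols came from the platform annotation, and the number of arrays limits the precision.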

Additional observations from a re-analysis of the deposited data

Results flagged for a closer look

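Among 73 genes read on the 4 reference arrays, 2 had an array far from the other 3, by Dixon's criterion for 4 samples, which chance meets in about 1 in 20 groups. Arntl was lowest on the 1 nM DEX array, at a log2 signal of 8.13, against 8.41 to 8.45 on the others, a gap of 0.891 of the range. Lrp2, an endocytic receptor of endoderm, was highest on the 1 nM T3 array, at 11.71, against 11.07 to 11.17 on the others, a gap of 0.833 of the range.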

How the results depend on the processing

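The count of 0 probes was unchanged with a signal floor of 16, a nec offset of 50, the authors' normalized table, probes detected on all 6 or at least 2 of the 6 arrays, the 18 arrays of the second set, no trend, the methods' t-test, T3 or DEX alone and a gene's probes averaged. It was 6 with median scaling and 24 with no detection filter, of which 2 were among the probes kept here. It was 7 in a fit of the 6 arrays alone, with 4 of the 6 lower ones being Cav1, Lox, Neat1 and 4632427E13Rik, and the 1 higher being a probe of Npm3-ps1 (difference 0.78, limma adjusted p = 0.00918 there). Without 1 array it ranged from 0 to 5, the 5 arising without the 1 nM TCDD array. Other references gave 379 (with 4OHPCB added), 578 (DMSO) and 3117 probes (the other 11 chemicals). Of the AhR targets and complex genes, 0 passed with 4OHPCB added, Arnt, Nfe2l2 and Crebbp passed against DMSO, and Cyp2s1, Cdkn1b, Socs2, Crebbp, Ptges3 and Hsp90aa1 passed against the other 11. The cause was not tested. Tiparp differed from DMSO by -0.53, and against the other 11 chemicals Cav1 differed by 0.0565 and Lox by 0.54, Lox thus passing in the opposite direction (limma adjusted p = 0.0493). The other values of Cyp1b1 ran from 0.47 to 1.27, and none passed. The filters on the 6 arrays left no Cyp1b1 or Tiparp probe. With dose level as a replicate block, the count was 0. Deviations of same-numbered arrays, which share a dose level, correlated at -0.0199, -0.0136 and 0.0290. What else these arrays share was not tested.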
